A study of Homo sapiens with 6 samples.

Results

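The regions described here carried a CTCF peak in wild-type HCT-116 cells and no overlapping peak in either of a pair of mutant clones. There were 1411 of them, among 58351 CTCF regions in all on chromosomes 1 to 22. HCT-116 is an established human colon cancer cell line. The groups were D3 and E4, each 1 clone whose genotype is labelled as a mutation of CTCF, and wild-type cells (WT). All were grown without treatment, and each had 1 library made by chromatin immunoprecipitation with a CTCF antibody and sequencing. The labels do not say where the mutation lies, and the series' title concerns how WNT signalling acts on MYC through a CTCF site at a distance. The regions were chosen by whether a peak was called in each list: the authors' broad peaks of the 3 lists were merged wherever they overlapped by at least 1 bp, and merged regions with a WT peak and neither a D3 nor an E4 peak were kept.

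CTCF is a zinc-finger protein that binds DNA at insulators and domain borders. Cohesin, which extrudes chromatin loops, halts at bound CTCF, so that pairs of CTCF sites often mark the feet of a loop. Strong CTCF sites tend to be occupied in most cell types, whereas weak sites vary more between cell types and between experiments.

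Each of the 1411 regions was a single WT peak, so the WT-only set made up 3.74% of the 37735 WT peaks on these chromosomes (exact 95% interval 3.55 to 3.94, counting error only). This share is what the rule selected and is not a result. Alongside it, 31692 regions were called in all 3 lists, 3905 in D3 and WT, 127 in E4 and WT, 15153 in D3 only, 838 in E4 only and 5225 in both clones without WT. The D3 list held 56103 peaks on these chromosomes, the E4 list 38209 and the WT list 37735, with median widths of 882 bp, 757 bp and 645 bp. The number of WT-only regions depended on these lists: it was 3163 when the D3 list and the E4 list were held to the length of the WT list, and 375 when the WT list was limited to a −log10 q of at least 2. With 1 library per population no difference has a replicate check, and no p-values were computed.

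At the edge of the rule, 24 WT-only regions lay within 100 bp of a clone peak. The closest was chr14:23998198-23998472, at the gene of the zinc-finger homeobox protein ZFHX2, which touched a D3 peak without overlapping it. Next were chr17:1656201-1657047, at SERPINF2, the gene of the plasmin inhibitor alpha-2-antiplasmin, with a gap of 1 bp to a D3 peak, and chr8:49366317-49366588, with a gap of 5 bp. Just outside the rule, the WT peak at chr1:27834606-27834876 overlapped a D3 peak by 5 bp, chr7:75948235-75948861 by 10 bp and chr17:77669074-77669530 by 12 bp. In all, 54 of the 36324 shared WT peaks (0.149%) overlapped clone peaks by under 100 bp.

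WT-only regions were mostly weak peaks. Whether a peak is called depends on its strength, so these values describe the set and test nothing. Fold enrichment, the authors' ratio of signal over the peak caller's background, had a median of 3.37 in WT-only regions (quartiles 3.18 and 3.62) and of 5.64 in the WT peaks of regions called in all 3 lists (4.46 and 7.27). The median −log10 q, the authors' measure of how far a peak stood out from background, was 1.65 in WT-only regions and 6.21 in the peaks of the all-3 regions. Of the WT-only regions 1036 (73.4%, 71.0 to 75.7) had a −log10 q under 2, against 5.57% (5.32 to 5.82) of the peaks of all-3 regions, and 5 reached 5 or more. The WT list was split into 10 slices of equal size by −log10 q. WT-only peaks made up 26.1% of the weakest slice (24.7 to 27.6), 7.90% of slice 2 (7.06 to 8.81), 84 of the 3774 peaks of slice 3 and 0.848% of slice 4 (0.581 to 1.20). Slices 5 to 8 held 7, 2, 1 and 1, and slices 9 and 10 held none, each with an exact upper limit of 0.0977%.

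**Figure D1:**
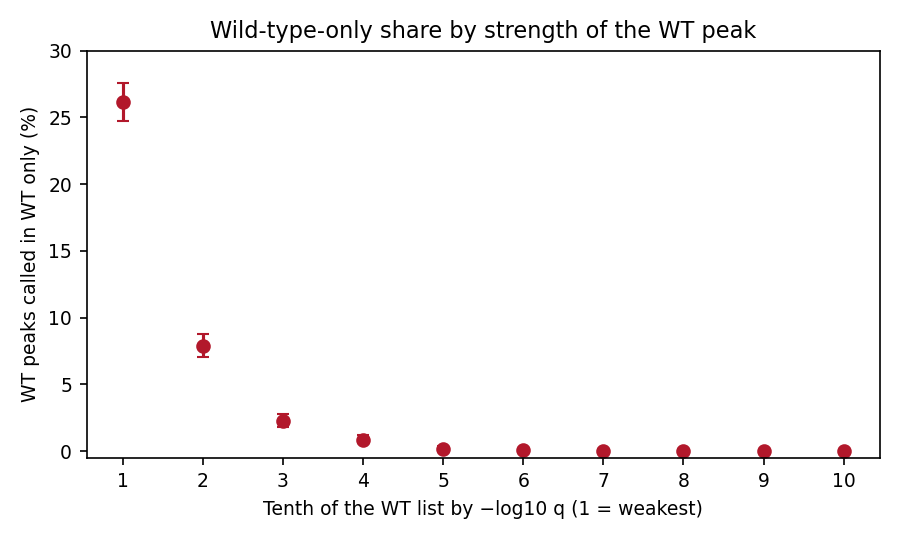
Share of WT peaks called in WT only (y axis, %) in 10 slices of the WT list by −log10 q (x axis, 1 is the weakest), with exact 95% intervals. The share was 26.1% in slice 1 and 0.848% in slice 4.

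The 10 WT-only regions with the highest −log10 q were distributed over 7 chromosomes. The strongest lay at CCAT1, a long non-coding RNA gene upstream of MYC (chr8:128226838-128227809, fold 7.15). Second came chr11:63933023-63933390, at the gene of MACROD1, an enzyme that removes ADP-ribose from proteins, with a fold of 6.49. Its −log10 q was 7.28, higher than 64.0% of WT peaks. The closest region called in all 3 lists lay 11.2 kb away, and its fold was 17.6 for D3, 23.3 for E4 and 9.43 for WT. Next was chr17:58103941-58104218, a 278 bp peak between RNFT1 and HEATR6 with a fold of 6.16. A shared region 7.01 kb from it had folds of 14.8, 8.98 and 7.46 for D3, E4 and WT, at percentiles 89.2, 68.8 and 76.8. All 3 of these WT-only regions thus lay within 11.2 kb of a peak that every population had.

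The next 4 of the strongest regions differed in their surroundings. At chr10:134036520-134037038, in the kinase gene STK32C, the fold was 5.33, the nearest D3 peak lay 3.17 kb away and the nearest E4 peak 52.7 kb away. At chr12:117393561-117394004, in FBXW8, which encodes a subunit of a ubiquitin ligase, the fold was 5.22. Its nearest shared region, 38.4 kb away, ranked low in every list, at the percentiles 1.21 for D3, 7.24 for E4 and 2.42 for WT among shared regions. At chr10:14242619-14242923, in FRMD4A, which encodes a scaffold protein of cell junctions, the fold was 5.30 and a shared region lay 2.18 kb away. At chr8:129026970-129027334, in the non-coding RNA gene PVT1, the fold was 5.18 and the nearest shared region was 254 kb away. These 4 thus ranged from close to far from the nearest shared region.

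The last 3 of the 10 lay at chr8:23795979-23796499, 83.7 kb from STC1, the gene of the hormone stanniocalcin, at chr9:139990048-139990383 in MAN1B1, a mannosidase gene of protein quality control, and at chr15:101661747-101662222. The chromosome 15 region lay 51.4 kb from the kinase gene LRRK1 and 53.7 kb from CHSY1, which encodes a chondroitin synthase. Their folds were 5.10, 5.02 and 4.83.

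WT-only regions were mostly narrow, with a long tail of wide ones. Their median width was 340 bp (quartiles 277.5 and 623.5), against 393 bp for WT peaks shared with D3 alone and 686 bp for the WT peaks of all-3 regions. The narrowest WT peak of the list was 248 bp wide, and 531 WT-only regions (37.6%, 35.1 to 40.2) were under 300 bp, near that floor, against 4.27% (4.06 to 4.50) of the peaks of all-3 regions. At the other end, 378 (26.8%, 24.5 to 29.2) were 600 bp or wider, against 61.1% (60.6 to 61.7).

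Since width and strength move together, widths were also compared among the weakest 20% of the WT list by −log10 q, 7547 peaks, of which 1284 were WT-only. Here 37.0% of the WT-only peaks (34.3 to 39.7) were under 300 bp, against 17.7% (16.5 to 18.9) of those in all-3 regions and 27.3% (25.4 to 29.2) of those shared with D3 alone. Median widths were 345.5 bp, 445 bp and 373 bp in the same order. The share at 600 bp or wider was 28.0% (25.6 to 30.6) in WT-only peaks and 28.7% (27.3 to 30.2) in weak peaks of all-3 regions, with overlapping intervals, and 20.7% (451 of 2179) in weak peaks shared with D3 alone. Strength was not fully matched within this stratum, since the median −log10 q was 1.60 in WT-only peaks and 2.07 in those of all-3 regions. In the weakest 10%, where it was closer (1.49 and 1.64), 32.4% of WT-only peaks (29.4 to 35.4) were 600 bp or wider, against 25.8% (23.6 to 28.0) of those in all-3 regions, and 33.5% (30.5 to 36.5) were under 300 bp, against 20.2% (18.2 to 22.2). WT-only peaks were thus more often under 300 bp in both strata, and more often wide in the weaker one.

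**Figure D2:**
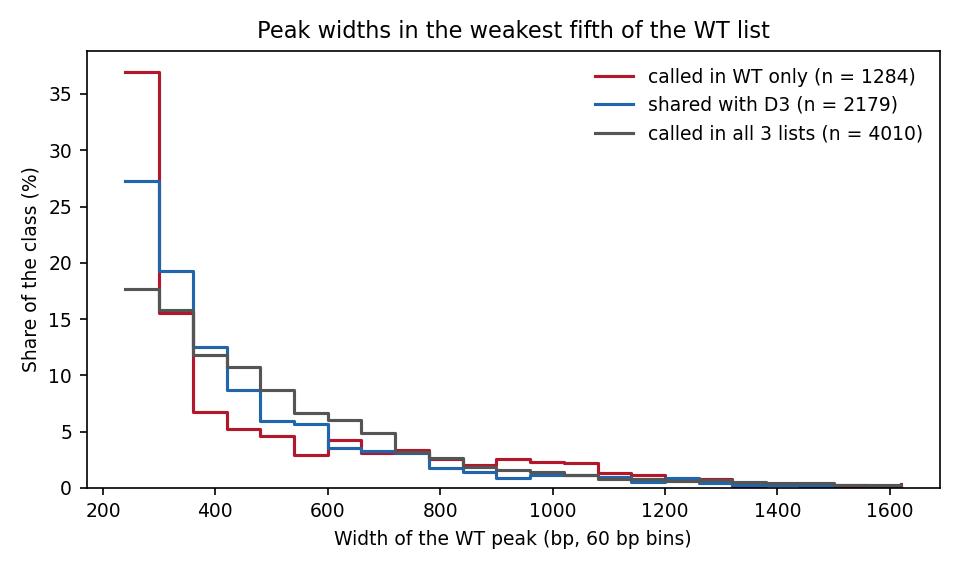
Widths of WT peaks (x axis, bp, bins of 60 bp) as a share of their class (y axis, %) in the weakest 20% of the WT list, for peaks called in WT only (1284), shared with D3 alone (2179) and called in all 3 lists (4010). Of the classes drawn, the WT-only peaks have the highest share under 300 bp, 37.0%. Peaks shared with E4 alone are not drawn.

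Wide WT-only regions had lower enrichment than narrow ones. The 531 regions under 300 bp had a median fold of 3.42 and the 222 regions of 800 bp or more a median of 3.25. Their median −log10 q was 1.72 and 1.47. The 5 widest were chr16:89410469-89412452 (1984 bp) in ANKRD11, which encodes a chromatin regulator, chr7:63024871-63026747 (1877 bp), chr17:63808859-63810734 (1876 bp) in the centrosomal protein gene CEP112, chr10:106302461-106304300 (1840 bp) between CFAP58 and SORCS3, and chr17:80896998-80898756 (1759 bp) in TBCD, a tubulin folding factor gene. None of the 5 had a fold above 3.22, and 4 of them lay on chromosomes 10, 16 and 17. Of the regions under 300 bp and of those of 800 bp or more, 33.1% (29.2 to 37.3) and 55.0% (48.2 to 61.6) lay on chromosomes 8, 10, 16 and 17, which were singled out after their values were known and are described next.

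Over the chromosomes, WT-only peaks were spread unevenly. They made up 9.53% of the WT peaks of chromosome 8 (8.29 to 10.9), 8.55% on chromosome 17 (7.40 to 9.83), 6.86% on chromosome 10 (5.76 to 8.08) and 5.99% on chromosome 16 (4.80 to 7.36). On the other 18 chromosomes the shares ran from 2.06% on chromosome 11 to 4.16% on chromosome 21, and together came to 2.72% (2.54 to 2.91). The 4 chromosomes held 588 of the WT-only regions (41.7%, 39.1 to 44.3), against 19.7% of all WT peaks. If each slice of the WT list had the same WT-only share everywhere, 98.2 such regions would lie on chromosome 8, where 192 were found, and 90.6 on chromosome 17, where 181 were found. For chromosome 10 the numbers were 131 found and 87.9 from strength, and for chromosome 16 they were 84 and 60.8. On 16 of the other 18 chromosomes fewer were found than strength gave. The expected numbers add up to the number of WT-only regions, so an excess on some chromosomes leaves fewer for the rest. This deficit is therefore not a separate result. Peaks of 1 library are not replicates, and intervals cover counting error only.

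**Figure D3:**
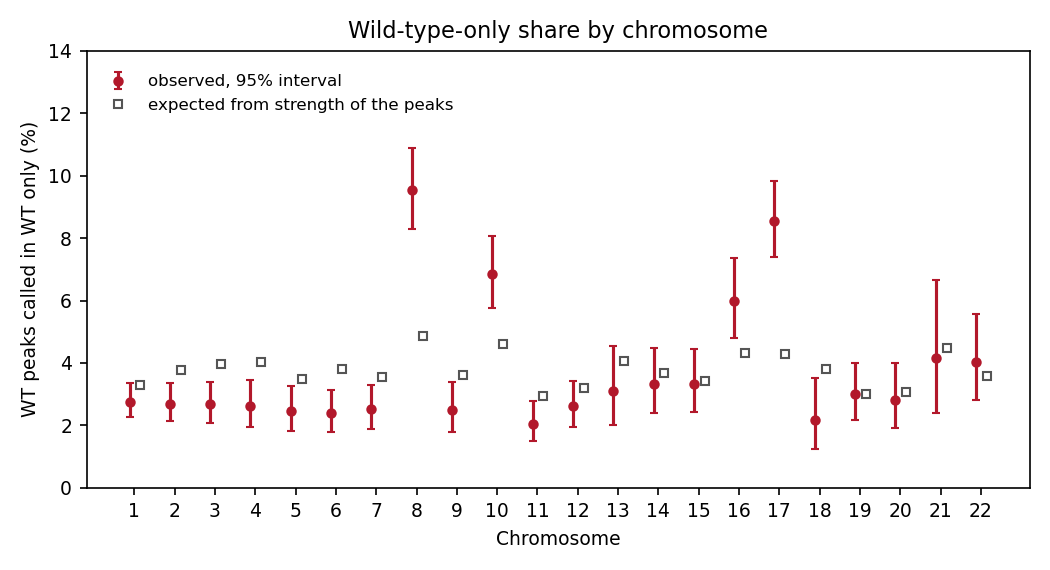
Share of WT peaks called in WT only (y axis, %) by chromosome (x axis). Filled circles are observed shares with exact 95% intervals, open squares the share expected from the strength of each chromosome's WT peaks. Chromosomes 8, 10, 16 and 17 lie above their expected share, with 9.53%, 6.86%, 5.99% and 8.55%.

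Within these chromosomes the WT-only regions crowded in the later part. The genome was cut into bins of 10 Mb, and in 9 bins with at least 50 WT peaks the lower interval limit exceeded 2 times the 3.74% of all WT peaks. All 9 lay on these 4 chromosomes. The first started at 100 Mb on chromosome 8, 110 Mb on chromosome 10, 80 Mb on chromosome 16 and 50 Mb on chromosome 17. They did not form unbroken stretches: the share was 4.85% (5 of 103) from 110 to 120 Mb on chromosome 8. From 60 to 70 Mb on chromosome 17 it was 9.65% (22 of 228), with a lower limit of 6.15%. The highest shares were 23.1% from 80 Mb onwards on chromosome 17 (12 of 52 WT peaks), 19.4% from 120 to 130 Mb on chromosome 10 (42 of 216) and 19.4% from 140 Mb onwards on chromosome 8 (44 of 227). Together the 9 bins held 317 WT-only regions, 22.5% of the set, among 1998 WT peaks. These bins were picked for their share, so the share itself is no test, nor is the spacing of WT-only regions within them, which follows from it.

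In the 9 bins the WT-only regions were wider and closer to shared regions than elsewhere. Their median width was 452 bp against 325 bp elsewhere, and 41.0% (35.5 to 46.6) were 600 bp or wider, against 22.7% (20.2 to 25.3). Weak WT peaks that all 3 lists shared were also wider there: of those in the weakest 20% of the WT list, 48.1% (39.2 to 57.0) of 129 were 600 bp or wider in the bins and 28.1% (26.7 to 29.5) of 3881 elsewhere. Greater width in the bins was therefore measured in shared peaks as well. The median distance from a WT-only region to the nearest all-3 region was 15.4 kb in the bins and 21.4 kb elsewhere. This distance was taken for WT-only regions alone. How densely all-3 regions lie in the bins was not compared, so closeness particular to WT-only regions is not shown. The other classes were compared with the WT-only regions left out, so that their number does not set the shares. Regions of both clones without WT then made up 4.66% (3.84 to 5.60) of 2317 regions in the bins and 9.37% (9.12 to 9.62) elsewhere, and D3-only regions 23.2% (21.5 to 24.9) and 26.8% (26.4 to 27.1). D3 and WT without E4 made up 11.4% (10.1 to 12.7) and 6.67% (6.46 to 6.88), and regions called in all 3 lists 59.4% (57.4 to 61.4) and 55.5% (55.1 to 55.9). All these shares rest on the same 3 lists from which the bins were picked. The content of these segments in each population, and its part in the calls, was not tested.

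Regions called in all 3 lists are not WT-only regions, but they come from the same 3 libraries. Those nearest to WT-only regions, and the 9 bins, were picked through the WT-only calls, so their ranks are no independent check. Each all-3 region was ranked by fold within this class, separately per library. The ranks thus come from lists of equal length. The 1300 shared regions nearest to a WT-only region had a median percentile of 54.7 for D3, 52.3 for E4 and 56.4 for WT. The median of the differences per region was −0.98 points for D3 minus WT and −2.41 points for E4 minus WT, against 0.103 and 0.424 points in the 30392 other shared regions. Both are small against their spread, since the quartiles for E4 ran from −17.5 to 10.1 points and those for D3 also lay on both sides of 0.

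This difference was larger inside the 9 bins, both beside WT-only regions and away from them. Inside the bins the nearest shared regions had median differences of −5.17 points for D3 and −6.43 points for E4 (270 regions), and the other shared regions had −4.40 and −5.33 points (1107 regions). Outside the bins the medians were −0.45 and −1.30 points next to WT-only regions (1030 regions) and 0.284 and 0.647 points at the others. Ranked by −log10 q, the nearest shared regions inside the bins had −1.87 points for D3 and −4.08 for E4, and the others −0.85 and −3.73. Taken bin by bin over all shared regions, the median by fold was below 0 in 9 of 9 bins for each clone, from −1.30 to −12.1 points for D3 and from −0.65 to −12.7 points for E4. By −log10 q it was below 0 in 9 of 9 bins for E4 and in 7 of 9 for D3, with medians of 0.0536 points at 110 to 120 Mb on chromosome 10 and 3.20 points at 80 to 90 Mb on chromosome 16 as the exceptions. The lower rank for D3 in these bins thus depended in part on the measure. Over whole chromosomes it was also mixed: on chromosome 10 the D3 median by fold was 1.00 points next to WT-only regions and 0.775 points at other shared regions. The comparisons of D3 and of E4 use the same WT library. The bins were picked for missing clone calls in these same libraries, so lower clone ranks there are not separate support.

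**Figure D4:**
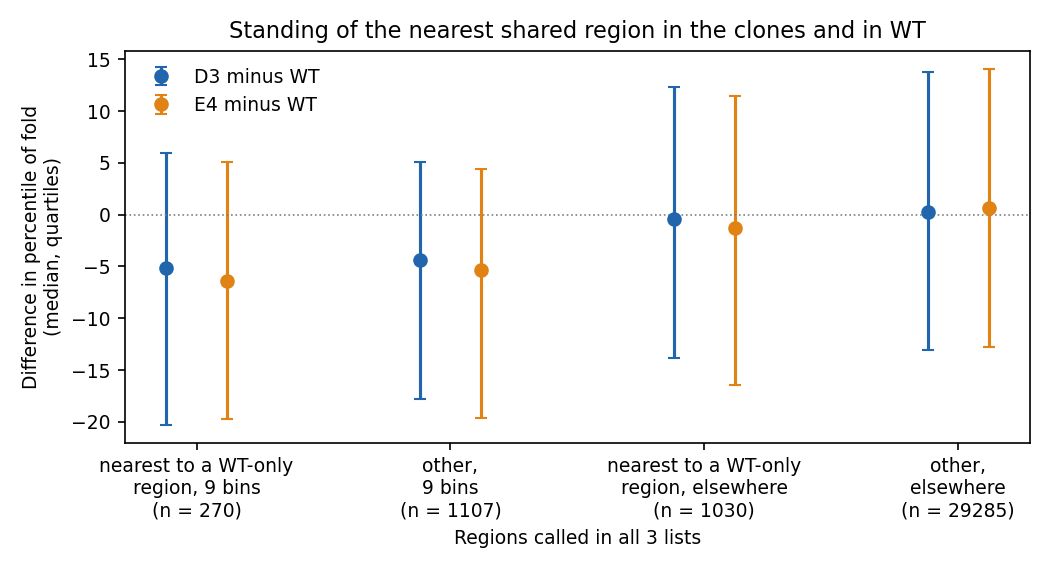
Difference in percentile of fold (y axis, points, clone minus WT) of regions called in all 3 lists, for the shared region nearest to a WT-only region and for other shared regions, inside the 9 bins of 10 Mb and elsewhere (x axis). Points are medians and bars run between quartiles. The 4 medians inside the bins lie between −4.40 and −6.43 points, and all bars cross 0.

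WT-only regions lay among shared CTCF regions. The median distance to the nearest region called in all 3 lists was 19.9 kb (quartiles 7.48 and 49.8 kb), against 24.9 kb for D3-only regions and 31.1 kb for E4-only regions. From one all-3 region to the next the median was 17.7 kb. Within 10 kb of an all-3 region lay 31.3% of the WT-only regions (28.8 to 33.7), 26.8% of the D3-only regions (26.1 to 27.5) and 27.0% of the E4-only regions (226 of 838). The interval for WT-only regions lay above that for D3-only regions and overlapped that for E4-only regions. Within 100 kb the shares were 86.7%, 84.8% and 81.5%, and 5 WT-only regions were over 1 Mb away. Among weak WT peaks the values were close: in the weakest 20% of the list the median distance was 20.2 kb for WT-only peaks and 20.4 kb from weak all-3 regions to the next all-3 region, and the shares within 10 kb were 30.9% (28.4 to 33.5) and 30.5% (29.1 to 32.0).

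**Figure D5:**
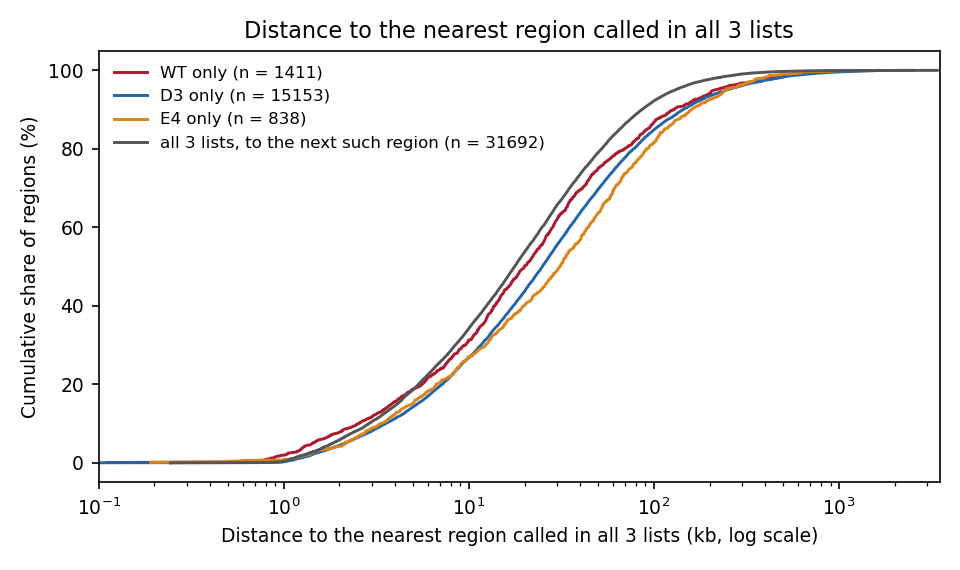
Cumulative share of regions (y axis, %) by distance to the nearest region called in all 3 lists (x axis, kb, log scale, distances under 0.1 kb drawn at 0.1), for WT-only, D3-only and E4-only regions and for all-3 regions themselves. WT-only regions reach 31.3% at 10 kb and 86.7% at 100 kb, at both points between the D3-only regions and the all-3 regions.

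The contrast was larger at the shortest range. Within 1 kb of an all-3 region lay 27 of them (1.91%, 1.26 to 2.77), against 0.257% of the D3-only regions (0.183 to 0.352) and 0.716% of the E4-only regions (0.263 to 1.55). Among weak WT peaks the share was 2.02% for WT-only peaks (26 of 1284) and 0.224% for peaks in all-3 regions (9 of 4010). Merging joins neighbours that a single broad peak spans, and its part in this contrast was not tested. The 5 nearest were chr1:60182377-60182679 in FGGY, a carbohydrate kinase gene, 110 bp from its shared region, chr10:118873228-118873527, 14.5 kb from the homeobox gene VAX1 (250 bp), chr8:126348211-126348945 in NSMCE2, the gene of a SUMO ligase (489 bp), chr21:43782201-43782503 at TFF1 (495 bp) and chr2:109543230-109543485 in the ectodysplasin receptor gene EDAR (645 bp). TFF1 encodes a secreted trefoil peptide of the gastrointestinal mucosa.

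The shared neighbours of these 5 regions ranged from weak to strong. Beside the TFF1 region D3 had a fold of 11.8, E4 of 10.8 and WT of 8.28, and beside the EDAR region the folds were 9.59, 8.07 and 7.97 in that order. At the FGGY region they were 7.82, 4.12 and 3.83. Near VAX1 the D3 value was 10.8, E4 had 6.22 and WT 3.88, and near NSMCE2 the values were 6.17, 4.59 and 5.52. Folds run lower in the WT list, so percentiles of fold among shared regions are given as well, for D3, E4 and WT. They were 74.5, 81.8 and 84.2 beside TFF1, and 56.2, 60.4 and 81.8 beside EDAR. Beside FGGY they were 36.9, 8.78 and 11.1, near VAX1 67.2, 38.2 and 12.1, and near NSMCE2 18.2, 15.4 and 47.5.

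The 5 regions farthest from an all-3 region were chr19:21711368-21711650 at ZNF429, in a cluster of zinc-finger genes (1641 kb), chr10:84197989-84198376 in NRG3, the gene of the growth factor neuregulin 3 (1418 kb), chr21:14373027-14373313 (1258 kb), chr2:5813456-5813709, 19.1 kb before the transcription factor gene SOX11 (1099 kb), and chr7:63024871-63026747 (1064 kb), which is also the second widest. Their −log10 q ran from 1.09 to 1.72, all in the weakest 10% of the list. D3 had peaks closer than that to each, at 44.3 to 288 kb.

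Distances to peaks of the clones were taken from WT-only regions alone, so they describe the set without a background. The nearest D3 peak lay at a median of 11.4 kb from a WT-only region and the nearest E4 peak at 16.9 kb, and D3 was the nearer of the clones for 1186 of the 1411 regions (84.1%, 82.0 to 85.9), with a list of 56103 peaks against 38209 in E4. Within 1 kb, 82 WT-only regions had a D3 peak and 22 an E4 peak.

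The regions directly before and after WT-only regions were then counted in the merged list. A region called in all 3 lists stood on at least 1 side of 1047 WT-only regions (74.2%, 71.8 to 76.5) and on both sides of 394 (27.9%, 25.6 to 30.3). Both shares were counted for WT-only regions alone, with no value for other regions beside them. Over all neighbours, 51.1% were all-3 regions (49.2 to 52.9), against 54.3% for neighbours of any region, and 25.5% were D3-only regions, against 26.0%. Another WT-only region was the neighbour in 6.24% of cases (5.37 to 7.20), against 2.42% (2.33 to 2.51) around any region. Regions of D3 and WT made up 8.61% (7.60 to 9.71), against 6.69%, and regions of both clones without WT 7.05% (6.14 to 8.06), against 8.95%. WT-only regions were thus more often next to one another, and less often next to regions of both clones, than regions in general. Adjoining their own class was not particular to them. It held for E4-only regions in 4.30% of cases (3.38 to 5.38), against 1.44% around any region. For regions of D3 and WT it was 9.45% (8.81 to 10.1), against 6.69%. Neighbours of both clones made up 7.99% around regions of D3 and WT and 10.7% around E4-only regions.

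Along the WT list itself, 1186 WT-only peaks stood alone between shared WT peaks, 86 pairs followed each other, and 16 runs held 3 or 4 WT-only peaks with no shared WT peak in between. Of the 5 runs of 4, 2 lay on chromosome 8, 2 on chromosome 10 and 1 on chromosome 17. The shortest was chr17:70562346-70640344, a stretch of 78.0 kb between SOX9, a transcription factor gene of the intestinal crypt, and the zinc transporter gene SLC39A11, whose nearer edge lay 1.74 kb past the last peak. Its 4 peaks had folds of 2.96 to 3.41, and 1 D3-only region lay among them. The run at chr10:128545394-128863654 spanned 318 kb before and in DOCK1, the gene of an activator of the GTPase RAC, with folds of 3.13 to 3.83 and 4 D3-only regions inside.

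Of the other runs of 4, those at chr8:86564494-86811180 and chr8:139202994-139597108 held no clone peak. At chr8:86564494-86811180, between the carbonic anhydrase gene CA2 and the kinase gene PSKH2, no D3 and no E4 peak lay inside the 247 kb. Its first 3 peaks, chr8:86564494-86565527, chr8:86569758-86571042 and chr8:86572196-86573828, were 1034, 1285 and 1633 bp wide and lay within 10 kb of each other. Their folds were 2.74, 3.70 and 2.38, and the fourth peak, 276 bp wide, had 4.89. In a RefSeq table of another assembly, 11 of the 20 genes between CA2 and PSKH2 belong to the repeated REXO1L pseudogene family. How reads from such copies were placed is not given in the sources used here.

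Between FAM84B and PVT1 around MYC there were 9 WT-only regions. The number of all WT peaks in this stretch is not given, so the 9 carry no share. In the bin from 120 to 130 Mb, 28 of 194 WT peaks were WT-only (14.4%). Of the 9, 3 formed a run of their own from CCAT1 towards CASC8 (chr8:128226838-128289903). The other 2 of that run, chr8:128261309-128261598 and chr8:128289594-128289903, were 290 and 310 bp wide with folds of 3.55 and 3.15, well under the 7.15 of the CCAT1 peak. The shared region nearest to the CCAT1 peak lay 5.53 kb away. By fold it ranked at percentile 27.5 among shared regions for D3, 69.5 for E4 and 59.4 for WT, so that D3 ranked it below WT and E4 above. A 796 bp peak at chr8:128210672-128211467, on the other side of CCAT1, had a fold of 2.97. Further on, chr8:128420679-128421586 in CASC8, a non-coding RNA gene, was 908 bp wide with a fold of 3.15, and chr8:128597737-128598369 was 633 bp wide with a fold of 3.36. Between MYC and PVT1, chr8:128775821-128776432 had a fold of 3.36 and lay 22.1 kb from MYC, and within PVT1 chr8:129078244-129078520 had a fold of 3.31.

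Known genes were looked up in windows with 10 kb on either side. Of 65 windows in 6 lists, 56 held a WT peak and 10 a WT-only region. None of the 32 WT peaks at 16 WNT target and pathway genes and none of the 23 at 9 genes of CTCF, cohesin and its regulators was WT-only, where the upper exact limits are 10.9% and 14.8%, both above the 3.74% of all WT peaks. In the 7 windows around MYC, which leave out some of the WT-only regions named above, 5 of 14 WT peaks were WT-only. This share of 35.7% (12.8 to 64.9) has an interval that includes the 14.4% of the bin holding MYC. In the window of MYC itself 0 of 4 WT peaks were WT-only. Over the other lists 6 of 161 were WT-only (3.73%, 1.38 to 7.93), a share near that of all WT peaks. These 6 regions in the other lists were weak. They lay at TFF1 (fold 3.35), at SMAD2, which encodes a signal carrier of the TGF-beta pathway (3.25), at the imprinted growth factor gene IGF2 (3.37), at the HOXC cluster of developmental genes (3.23), at the HOXA cluster, where the −log10 q was 1.13, and at the protocadherin cluster of cell adhesion genes (3.35). Each of these windows also held shared WT peaks, with a highest −log10 q between 5.61 at SMAD2 and 20.3 at HOXA.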

How the data were processed

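Each CTCF library came with its own deposited list of broad peaks, with 9 columns per peak. Tools named in the submitters' processing notes, with no role or order, are MACS2 2.2.7.1, bedtools 2.29.2, Picard 2.23.1 and CASAVA 1.8.2, and the build is hg19. The aligner, call settings and use of the 3 no-antibody libraries, which were not analysed here, are not given in the sources used here. Per peak, the fold, a ratio, and the −log10 p and −log10 q values are the authors'. Ranks and slices were taken within each list. Folds of some shared regions were also printed side by side for the 3 lists, and an alternative set the same −log10 q limit in all lists. The deposited score equals 10 times the −log10 q without decimals in over 99.9% of peaks (99.97% for D3, 99.99% for E4, 99.98% for WT) and, like −log10 p, was not used. Depth is unknown.

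Lists were merged and distances taken edge to edge with Python 3.11.15, numpy 2.4.6, pandas 2.3.3 and scipy 1.17.1, and the code was tested on simulated intervals. Touching peaks were not merged. Shares carry exact (Clopper-Pearson) 95% intervals. Numbers expected from strength apply the WT-only share of each of 10 equal slices of the WT list.

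Sites were named by rule: the 10 strongest, 5 widest, 5 nearest and 5 farthest members, the 3 longest runs (among runs of equal number, those of shortest span), the 3 top bins, those around MYC, and the 3 on each side of the rule's edge. Members and lists were chosen with earlier results of these data known. The 97 gene windows are hand-written positions in hg19 recalled without an annotation, after the sites were known, and carry no exon or intron assignment. All 97 names were found on the same chromosome in a RefSeq table of GRCh38, in the same order on 17 of 17 chromosomes, with lengths within 10% for 85. Sequences of the regions are not printed, since no genome of this build was used here.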

Additional observations from a re-analysis of the deposited data

Results flagged for a closer look

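Chromosome X lies outside the rule, which takes chromosomes 1 to 22, and it carried WT-only regions too. There were 16 among its 910 WT peaks (1.76%, 1.01 to 2.84). The strongest, chrX:112003966-112004369, reached a −log10 q of 8.29 at a fold of 6.95, and the second strongest reached 3.90.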

How the results depend on the processing

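In 27 of 42 alternatives a value kept within its 95% interval, or a count within 1.5 times its size, while 15 moved and none reversed. Counts, widths, distances and shares, which make up most of these values, have no direction that could reverse. Clone lists of equal length gave 3163 WT-only regions with a median width of 356 bp, and all 1411 were among them. A WT list limited to a −log10 q of at least 2 gave 375 and 302 bp. The same limit in all lists gave 522 regions, 308.5 bp, a median distance to the nearest all-3 region of 22876 bp and 28.4% within 10 kb. With clone peaks asked to cover 50% of the WT peak the median width was 451 bp. Within 5 kb and 20 kb of an all-3 region lay 18.7% and 50.0%. In the weakest 10% of the WT list the median widths were 378 bp for WT-only peaks and 427 bp for those of all-3 regions. Bins of 5 Mb gave 14 bins above the limit, and members within 100 kb of each other formed 43 runs of 3 or more. Beyond what the filters set by construction, the cause was not tested. No paired analysis was possible because each population had a single CTCF library, so that no library could be left out either. With depth unknown, a missing call of so weak a peak cannot be told apart from a lack of reads.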

Other observations

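WT-only regions were more frequent towards the far ends of chromosomes. Within 5 Mb of the last called region of a chromosome lay 12.3% of them (174 of 1411, 10.7 to 14.2), against 5.92% of the other WT peaks (5.68 to 6.17). On the 18 chromosomes other than 8, 10, 16 and 17 the shares were 8.51% (6.69 to 10.6) and 5.32% (5.06 to 5.58). At the near ends, within 5 Mb of the first called region, they were 6.52% (5.29 to 7.94) and 5.36% (5.13 to 5.60), with overlapping intervals. This look at chromosome ends was taken after the chromosomes had been compared.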
